A study of Homo sapiens with 12 samples.

Results

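The cytosolic ribosomal protein genes were taken from the count table by symbol: protein-coding genes named RPL or RPS with a number, together with RPLP0, RPLP1, RPLP2 and RPSA, and without the RPS6K kinases and RPS27L. The rule found 83 of 58288 gene IDs. Of these, 46 encode proteins of the large subunit, 31 encode proteins of the small subunit, and 6 (RPL3L, RPL7L1, RPL10L, RPL22L1, RPL26L1 and RPL39L) are paralogs, copies named after a core gene. They lie on 21 chromosomes, with 12 on chromosome 19, 9 on chromosome 3 and 4 on chromosome 2. The filter on low counts kept 81 of them, since RPL10L had no counts and RPL3L had 3 counts over all libraries.

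RNA was measured in HK2, an established human kidney proximal tubule cell line. Cells carried a stable short hairpin RNA (shRNA) against FLCN or a nontargeting shRNA, and were harvested either short-term, at fewer than 30 passages, or long-term, labelled as more than 120 passages, for which the study's methods give a lower bound. Each combination of shRNA and culture time had 3 biological replicates, which gives 4 groups: nontarget cells and FLCN knockdown cells at the early time, and both again at the late time. All were grown in the same serum-containing medium, and the nontarget cells are labelled as wild type. The study kept several clones, and which clone gave which library is not stated, so an effect of the knockdown and an effect of the clone cannot be told apart.

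Ribosomal proteins assemble with ribosomal RNA into a small subunit, which reads the mRNA, and a large subunit, which joins amino acids. They are made in near-equal numbers in growing cells. Most of their mRNAs belong to the TOP class, whose transcripts start with a C and a run of pyrimidines and whose translation is controlled by the kinase complex mTORC1. FLCN, the protein lost in Birt-Hogg-Dubé syndrome, acts in the same lysosomal signaling system through the Rag GTPases.

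The start of the transcript is what marks this class, so start sites from RefSeq (build GRCh38.p14) are shown for genes described below. Of the 83 genes, 66 had a start in that table. In 47 of the 66 (71.2%), at least 1 annotated start was a C followed by 4 or more bases that were each C or T on the coding strand, against 1404 of 27305 genes in the whole table (5.14%). The lines below run from 15 bases before the start to 15 bases from it onward, 5′ to 3′, with the pyrimidine run at the start in capitals. The last 3 lines have no such run at the annotated start.
RPS27A, chr2:55232673-55232702, plus strand: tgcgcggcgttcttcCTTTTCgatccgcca
RPL35A, chr3:197950175-197950204, plus strand: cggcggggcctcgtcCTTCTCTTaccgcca
RPL38, chr17:74203663-74203692, plus strand: aacggaagtctcgttCTTTTTCgtcctttt
RPL10, chrX:154398362-154398391, plus strand: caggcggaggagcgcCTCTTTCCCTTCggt
RPS6, chr9:19380222-19380251, minus strand: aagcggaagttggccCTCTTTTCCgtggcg
RPL31, chr2:101002274-101002303, plus strand: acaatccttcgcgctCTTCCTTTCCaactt
RPLP0, chr12:120201097-120201126, minus strand: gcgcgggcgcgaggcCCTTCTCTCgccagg
RPS7, chr2:3575245-3575274, plus strand: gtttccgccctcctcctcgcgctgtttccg
RPL26L1, chr5:172958714-172958743, plus strand: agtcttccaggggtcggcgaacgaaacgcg
RPL7L1, chr6:42879601-42879630, plus strand: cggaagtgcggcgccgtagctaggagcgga

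Libraries held 5825779 to 8991051 counts. FLCN itself had 15.3 ± 2.25 CPM (counts scaled to a common normalized library size, mean ± SD, n = 3) in short-term nontarget and 6.06 ± 0.469 CPM in short-term knockdown cells, and 11.3 ± 1.23 against 6.99 ± 0.868 CPM in the long-term cells (log2 fold change −1.33, edgeR adjusted p = 0.000112, and −0.70, adjusted p = 0.00611). The knockdown was therefore partial in both. Of 17 epithelial and proximal tubule markers, the keratins KRT8 and KRT18 and the transcription factor PAX8 were above 100 CPM in every library, while LRP2, the megalin receptor of proximal tubule, had no counts and AQP1 and ANPEP were at or near 0. Markers of leukocytes summed to at most 1.32 CPM and of endothelium to at most 2.20 CPM in any library, with PTPRC, CD3E and KDR at 0. The 17 epithelial markers summed to 2930 to 3175 CPM in short-term nontarget, 3549 to 4332 in short-term knockdown, 3715 to 4208 in long-term nontarget and 4544 to 5152 in long-term knockdown libraries. The highest sum came with the cadherin CDH6, which had 208 to 295 CPM in long-term nontarget and 1412 to 1742 CPM in long-term knockdown libraries. Without CDH6 the other 16 summed to 3507 to 3914 and 2802 to 3741 CPM in these groups, and KRT8 (means 2037 and 1693), KRT18 (894 and 739) and PAX8 (256 and 161) were lower in the knockdown cells. The 7 fibroblast markers summed to 49.2 to 56.8 CPM in short-term and 24.6 to 36.8 CPM in long-term libraries. COL1A2 and PDGFRA were at most 0.245 CPM, while the collagen gene COL1A1 had 13.4 to 37.2 CPM and the matrix gene LUM 15.6 to 27.9 CPM short-term, 0.259 to 1.55 CPM in long-term nontarget and 9.16 to 14.5 CPM in long-term knockdown libraries. The receptor gene PDGFRB went the other way than LUM, with means of 7.55 CPM in long-term nontarget and 0.646 CPM in long-term knockdown libraries. The part of either list in the results was not tested.

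The levels of the core genes differed widely when counts were taken per kilobase of coding sequence. In short-term nontarget cells the 77 core genes had a median of 1311 CPM per kilobase, with the middle 80% between 698 and 2173, a 3.11-fold range. RPL41, which encodes a very short peptide, was highest with a mean of 6899 CPM per kilobase over the 4 groups, followed by RPS18 (3641), RPS24 (3524), RPL37 (3223) and RPLP0 (2740). Counts were per gene, while the divisor was the coding sequence alone, which is 75 bases for RPL41. Its rank depends on that divisor, since RPL41 had 401 to 740 CPM and RPLP0 2207 to 3266 CPM before division. At the other end stood RPL36A (4.29), RPS10 (33.3), RPL17 (35.6), RPL26 (239) and RPS15A (316). The first 3 of these overlap a read-through gene that joins them to a neighbor (RPL36A-HNRNPH2, RPS10-NUDT3 and RPL17-C18orf32), and these read-through genes had 0 counts. RPL36A had 4 to 20 counts per library, so its values are the least precise of all. Near-identical processed copies are common in this family: 1150 pseudogenes are named after 77 of the genes and held 46668 counts, against 4943937 counts for the genes themselves (0.944%). How reads that match several copies were handled is not stated, which bears on every level given here.

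Ribosomal protein mRNA took a larger share of the long-term knockdown libraries than of any other. The share of all counts was 5.47%, 5.33% and 5.24% in the short-term nontarget replicates and 6.4%, 5.80% and 5.43% after short-term knockdown. It was 5.44%, 5.44% and 5.13% in the long-term nontarget replicates and 7.16%, 6.66% and 6.75% after long-term knockdown. The long-term knockdown libraries did not overlap with any other group, whereas the short-term knockdown libraries overlapped with both nontarget groups. The mean difference was 1.52 percentage points between the long-term groups (exact permutation test, two-sided, p = 0.10, which is the smallest p that 3 against 3 libraries allow, adjusted over 4 comparisons p = 0.20) and 0.526 points between the short-term groups (exact p = 0.20, adjusted p = 0.267). Between the nontarget groups it was −0.00846 points (exact p = 1). The small-subunit genes went from 2.10% ± 0.0751 to 2.74% ± 0.179 (SD, n = 3) and the large-subunit genes from 3.21% ± 0.123 to 4.08% ± 0.0900 between long-term nontarget and knockdown cells. A share of counts falls or rises with everything else in the library: counts from the mitochondrial genome made up 2.93% ± 0.355 of the nontarget and 4.57% ± 0.932 of the knockdown libraries at the late time, and their part in the comparison was not tested. In bulk RNA, fewer cells of a type and less RNA per cell cannot be told apart.

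To ask what FLCN knockdown does early, short-term knockdown was compared with short-term nontarget cells. Of the genes that passed the test, RPS7 and RPL37 rose the most, followed by RPS27A, RPL37A, RPL31, RPL26L1 and RPL10, and none fell. RPL36A had a higher log2 fold change of 1.3 (5, 6 and 6 counts against 16, 20 and 7) that was not called (edgeR adjusted p = 0.0664). A gene was called changed at an edgeR adjusted p below 0.05 over 13959 genes tested. By that rule 7 of 81 ribosomal protein genes rose, beside a background of 5.62% of all genes called higher, 4.71% called lower and 10.3% called in either direction. Across the 81 genes the log2 fold change had a median of 0.16 (12%), beside 0.00 for all genes. Leaving out 1 library gave medians of 0.09, without short-term knockdown replicate 1, to 0.20. It was above 0 in 72 of the 81 and in 50% of all genes. At an unadjusted p below 0.05 the number was 18 (22.2%), against 23.1% of all genes. DESeq2 called 10 higher, against 5.11% of the genes to which it gave an adjusted p. In 23 of the 81 every knockdown library was above every nontarget library, which held for 15.2% of all genes. None passed the 2.5-fold limit that the study used, with edgeR or with DESeq2, whereas 1.79% of all genes did with edgeR.

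RPL37, a zinc-finger protein of the large subunit (chromosome 5, 40825262 to 40835335), had 663, 579 and 638 CPM in short-term nontarget and 1099, 938 and 835 CPM in short-term knockdown cells (log2 fold change 0.61 with an SE of 0.107, edgeR adjusted p = 0.00115). RPS7, a small-subunit protein that can also bind the p53 regulator MDM2, had 579, 554 and 590 CPM against 979, 808 and 835 CPM (log2 fold change 0.61 with an SE of 0.108, edgeR adjusted p = 0.00131). In both genes the lowest knockdown library stood well above the highest nontarget library. RPS27A (chromosome 2, 55231903 to 55235853), which encodes a small-subunit protein fused to ubiquitin, had 659, 678 and 671 CPM against 1142, 990 and 748 CPM (0.52, SE 0.151, adjusted p = 0.0353). Its knockdown replicates spread over a wide range, and replicate 3 lay closest to the nontarget cells. RPL31 (chromosome 2, 101001715 to 101024032), at the rim of the exit tunnel, and RPL37A (chromosome 2, 216498189 to 216579180) rose by 0.45 (adjusted p = 0.0299) and 0.46 (adjusted p = 0.0135) on the log2 scale, and RPL10, which joins the large subunit late in its maturation, by 0.33 (adjusted p = 0.0189). RPL37 and RPS7 kept their calls when any 1 library was left out. For the other 5 genes the call was lost in 4 or 5 of the 6 fits that left out a library, and the number called was 2 without short-term nontarget replicate 2 or knockdown replicate 1, 3 without short-term nontarget replicate 1 or 3, 5 without knockdown replicate 2 and 9 without knockdown replicate 3. In those 6 fits 6.17% to 8.84% of all genes were called in either direction, against 10.3% with all libraries. The ribosomal protein genes called in them were all higher, and the share of all genes called higher in these fits is not given.

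Long-term knockdown was compared with long-term nontarget cells to see what remains after many passages. Here 51 of 81 ribosomal protein genes rose and none fell, beside a background of 13.7% of all genes called higher, 15.8% called lower and 29.5% called in either direction. All 81 had a log2 fold change above 0, with a median of 0.38 (30%) and quartiles of 0.31 and 0.47. Over all genes tested the median was 0.00 and 50.1% were above 0. In 57 of the 81 genes every long-term knockdown library was above every long-term nontarget library, which held for 19.0% of all genes. By subunit, 20 of 31 small-subunit genes were called with a median of 0.37, and 29 of 46 large-subunit genes with a median of 0.38. No ribosomal protein gene passed the 2.5-fold limit, with edgeR or DESeq2, against 6.61% of all genes with edgeR. DESeq2 called 52 of the 81 genes, among them all 51 called by edgeR, against 10.6% of all genes called higher by DESeq2. Same-numbered libraries of these groups deviated together, and with the replicate number as a block 73 of 81 genes were called, all higher, against 17.4% of all genes.

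Among the small-subunit genes, RPS7 changed the most. It had 659, 630 and 560 CPM in long-term nontarget and 1420, 1203 and 1127 CPM in long-term knockdown cells, a 2.03-fold rise (log2 fold change 1.02 with an SE of 0.108, edgeR adjusted p = 1.53e-06). RPS27A had 738, 736 and 559 CPM against 1474, 1264 and 1048 CPM (0.90, SE 0.151, adjusted p = 0.000233). The groups were separate for both genes, and replicate 3 was the lowest of its group in each. RPS18 (chromosome 6, 33272010 to 33276510), in the head of the small subunit, rose by 0.64 (SE 0.124, adjusted p = 0.00074), RPS3A by 0.60 (SE 0.168, adjusted p = 0.0129) with overlapping groups, and RPS6, the main substrate of S6 kinase downstream of mTORC1, by 0.57 (SE 0.126, adjusted p = 0.00231). RPS6 (chromosome 9, 19375715 to 19380254) had 1296, 1220 and 1021 CPM in nontarget and 1980, 1755 and 1502 CPM in knockdown cells, with no overlap. RPS26 and RPS19 were at the low end, with log2 fold changes of 0.13 (adjusted p = 0.331) and 0.15 (adjusted p = 0.233).

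Among the large-subunit genes, RPL35A, a gene mutated in Diamond-Blackfan anemia, had 541, 479 and 447 CPM in long-term nontarget and 1008, 882 and 794 CPM in long-term knockdown cells (log2 fold change 0.87 with an SE of 0.109, edgeR adjusted p = 1.01e-05). RPL38 (chromosome 17, 74203582 to 74210655), known for its role in translating Hox mRNAs in the mouse embryo, had 333, 338 and 308 CPM against 574, 511 and 497 CPM (0.69, SE 0.0922, adjusted p = 1.95e-05). RPL10 (chromosome X, 154389955 to 154409168) had 949, 930 and 970 CPM against 1487, 1402 and 1565 CPM (0.64, SE 0.0863, adjusted p = 2.01e-05). RPL38 and RPL10 had narrow spreads and RPL35A a wider one, and the groups were far apart in each of these 3 genes. RPL37 rose by 0.66 (SE 0.107, adjusted p = 0.000136) and RPL39, which lines the exit tunnel, by 0.67 (SE 0.204, adjusted p = 0.0207). RPL39 is the least certain of them, since its groups overlapped: 226, 163 and 151 CPM in nontarget against 376, 270 and 215 CPM in knockdown cells, and its call was lost in 3 of 6 fits that left out a library. Within each replicate number RPL39 was higher in the knockdown cells, and with the block its adjusted p was 0.000259. RPL36A had a log2 fold change of 0.85 that was not called (adjusted p = 0.159).

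Leaving out long-term knockdown replicate 1 lowered the number called from 51 to 33, and leaving out any other library of the pair gave 34 to 55. The share of all genes called in either direction was 23.2% without that library and 24.2% to 29.5% in the others. In all of these fits 28 of the 51 genes kept their call, among them RPS7, RPS27A, RPL35A, RPL38, RPL10, RPL37, RPS18 and RPS6. Over all 81 genes the median log2 fold change was 0.33 to 0.44 in these fits.

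**Figure D1:**
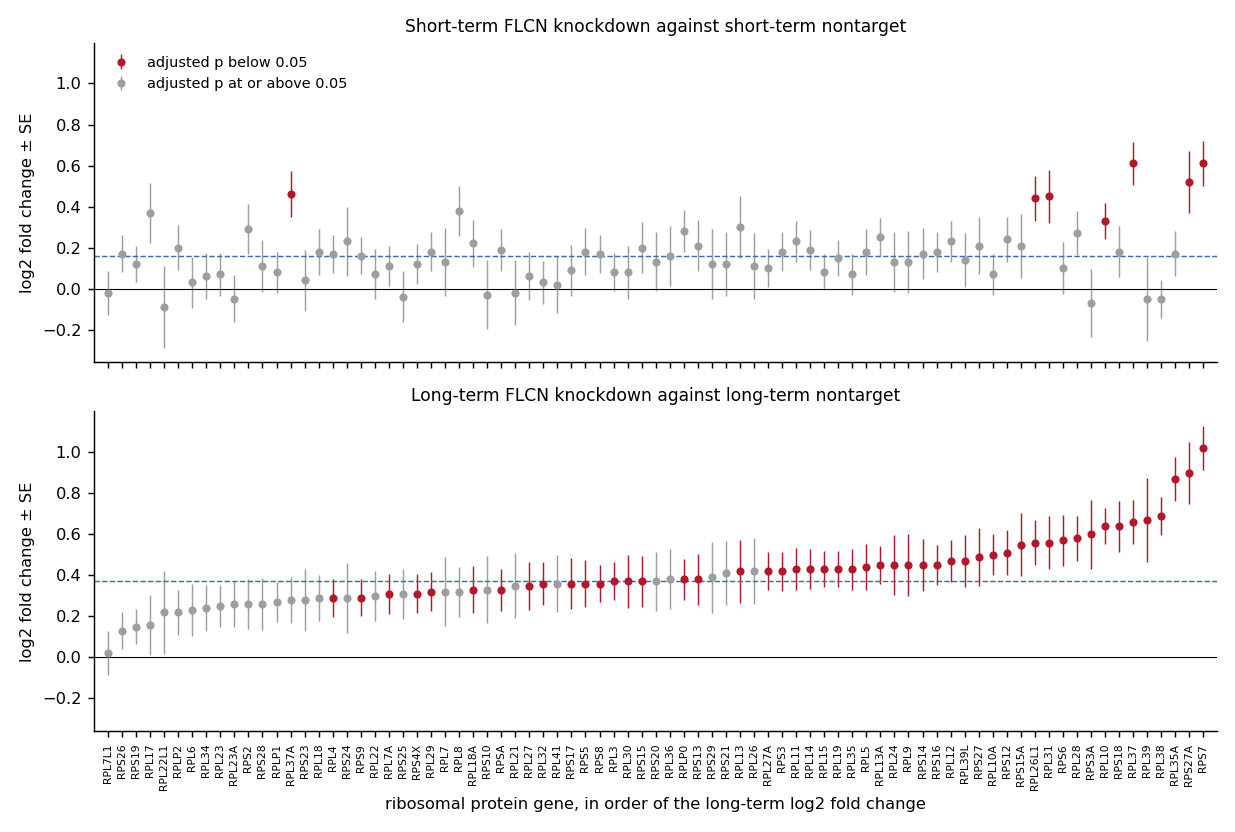
Log2 fold change (vertical axis, ± SE) of 79 ribosomal protein genes after short-term knockdown (top) and long-term knockdown (bottom), both in the order of the long-term values; RPL36A, with 4 to 20 counts per library, and 1 gene not reported here are not drawn. Red points have an edgeR adjusted p below 0.05, and the dashed line is the median of the points drawn. Every long-term point lies above 0, from 0.02 for RPL7L1 to 1.02 for RPS7.

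The stalk and the particle formed by RPL5 and RPL11 were followed as functional groups. The stalk, which recruits elongation factors, consists of RPLP0, on which pairs of RPLP1 and RPLP2 sit, with RPL12 at its base. In the long-term comparison RPLP0 had 2318, 2207 and 2339 CPM against 3074, 2615 and 3266 CPM and rose by 0.38 (SE 0.102, edgeR adjusted p = 0.00819), and RPL12 rose by 0.47 (SE 0.102, adjusted p = 0.00181). RPLP1 at 0.27 (adjusted p = 0.0533) and RPLP2 at 0.22 (adjusted p = 0.147) were not called. With the block RPLP1 was called (adjusted p = 0.0142) and RPLP2 was not (adjusted p = 0.0535). RPL5 and RPL11, which together with a ribosomal RNA can bind MDM2, rose by 0.44 (SE 0.112, adjusted p = 0.00652) and 0.43 (SE 0.102, adjusted p = 0.0036). RPL5 had 869, 870 and 754 CPM against 1230, 1153 and 991 CPM, and RPL11 had 733, 712 and 622 CPM against 987, 915 and 890 CPM, without overlap in either. None of these 6 genes was called after short-term knockdown, where their log2 fold changes ranged from 0.08 for RPLP1 to 0.28 for RPLP0.

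**Figure D2:**
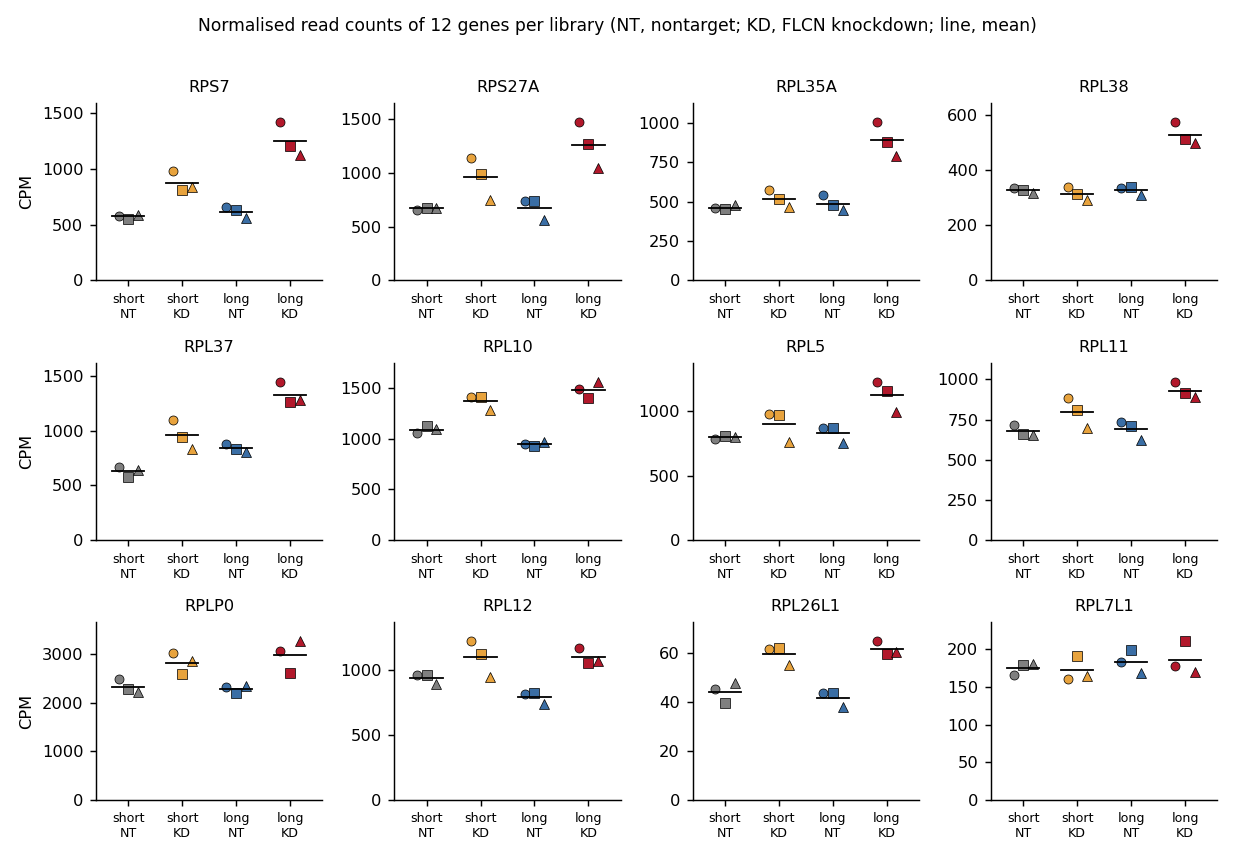
Normalized counts (CPM, vertical axes from 0) of 12 ribosomal protein genes in each library; circles, squares and triangles are replicates 1, 2 and 3, and the line is the group mean. RPS7, RPL35A and RPL38 are separated in long-term knockdown cells from all other groups, while RPL7L1 lies between 161 and 211 CPM throughout.

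The paralogs did not all follow the core genes. RPL26L1 (chromosome 5, 172958729 to 172969771) rose in both knockdown comparisons, with 45, 39.5 and 47.6 CPM against 61.5, 62.0 and 55.0 CPM short-term (log2 fold change 0.44, edgeR adjusted p = 0.0153) and 43.6, 43.5 and 38.0 CPM against 64.7, 59.4 and 60.4 CPM long-term (0.56, adjusted p = 0.000776). RPL39L rose by 0.47 long-term (adjusted p = 0.0101) and gave 0.14 short-term (adjusted p = 0.576), and the interaction of 0.33 was not called (adjusted p = 0.276). RPL7L1 gave −0.02 (adjusted p = 0.935) short-term and 0.02 (adjusted p = 0.897) long-term. RPL22L1 gave −0.09 (adjusted p = 0.857) and 0.22 (adjusted p = 0.452). Per kilobase of coding sequence, RPL26L1 reached 47.2% ± 6.37 (SD, n = 3) of the level of RPL26 in short-term nontarget cells and 59.8% ± 9.23 after short-term knockdown, and 44.4% ± 3.6 and 49.6% ± 7.30 in the long-term groups. RPL26 is a low reference, with 216 CPM per kilobase in short-term nontarget cells against a core median of 1311. RPL39L stood at 19.4% to 27% of RPL39, RPL22L1 at 14.0% to 22.9% of RPL22 and RPL7L1 at 13.1% to 16.0% of RPL7 by group mean. RPL3L, known from heart and skeletal muscle, and RPL10L, known from testis, had at most 1 count and 0 counts in any library, which allows up to 3 counts per library for a gene at 0.

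Culture time was first examined without knockdown. In long-term relative to short-term nontarget cells 1 of 81 genes was called, RPL37, which rose by 0.42 (SE 0.107, edgeR adjusted p = 0.0202), beside a background of 3.17% called higher, 4.38% called lower and 7.55% in either direction. It had 881, 835 and 802 CPM in long-term against 663, 579 and 638 CPM in short-term nontarget cells, but the call was lost in 5 of 6 fits that left out a library, and it remained only without long-term nontarget replicate 3. The 40 nearest tested genes on its chromosome had a median of 0.43 in this comparison, about as much as RPL37 itself. The median log2 fold change was 0.00, with 43 of 81 genes above 0 against 51.9% of all genes. None passed the 2-fold limit of the study for culture time, against 2.87% of all genes. Of the paralogs, RPL22L1 had the lowest value at −0.50 (adjusted p = 0.168), and the others lay between −0.08 and 0.06. In 1 of the 81 every long-term library was above every short-term library, against 12.1% of all genes, and in 7 every long-term library was below, against 13.6%.

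Long-term was then set against short-term culture in the knockdown cells. In that comparison 19 of 81 genes rose and none fell, beside 11.5% of all genes called higher, 15.2% called lower and 26.6% in either direction. The median log2 fold change was 0.22, with 72 of 81 above 0 against 51.6% of all genes. In 25 of the 81 every long-term library was above every short-term library, against 18.3% of all genes. None passed the 2-fold limit, against 8.78% of all genes. The largest rises were those of RPL35A (0.78, SE 0.109, edgeR adjusted p = 4.08e-05), RPL39 (0.77, SE 0.205, adjusted p = 0.0116), RPL38 (0.75, SE 0.0923, adjusted p = 1.04e-05), RPS3A (0.70, SE 0.168, adjusted p = 0.00544), RPS7 (0.52, SE 0.107, adjusted p = 0.0016) and RPL41 (0.49, SE 0.137, adjusted p = 0.0133). RPL35A had 575, 520 and 467 CPM in short-term and 1008, 882 and 794 CPM in long-term knockdown cells, with no overlap. RPL5 also rose (0.32, adjusted p = 0.0444), and no paralog was called, with values from −0.19 to 0.26. The number called depended on single libraries, since it was 6 without long-term knockdown replicate 1, 12 without short-term knockdown replicate 2 or 3, and 29 without short-term knockdown replicate 1, beside 19.9% to 23.2% of all genes called in either direction. All of these were higher except RPL37A without short-term knockdown replicate 3, which fell. Same-numbered libraries of these groups deviated together, and with the replicate number as a block 39 of 81 genes were called, all higher, against 15.8% of all genes. This comparison shares the long-term knockdown libraries with the long-term comparison above.

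Whether the knockdown effect changed with culture time was tested as an interaction. RPL38 and RPL35A passed with more positive effects at the late time, beside 4.98% of all genes called in that direction, 8.43% in the other and 13.4% in either. For RPL38 the knockdown effect was 0.74 larger on the log2 scale in the long-term cells (SE 0.13, edgeR adjusted p = 0.000716). Its short-term libraries overlapped, with 336, 327 and 315 CPM against 339, 312 and 292 CPM. For RPL35A it was 0.70 larger (SE 0.154, adjusted p = 0.00472). Both kept the call in all fits that left out 1 library. The median over the 81 genes was 0.25, and 75 were above 0 against 50.2% of all genes. No ribosomal protein gene passed a 2.5-fold limit here, against 5.44% of all genes. The number called was 10 without short-term knockdown replicate 1, 6 without long-term knockdown replicate 3, and 4 without long-term nontarget replicate 1, beside 11.6%, 16.1% and 13.8% of all genes called in either direction. It was 18 with the block, where 8.58% of all genes were called in that direction and 20.6% in either.

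Some of the genes that rose the most lie in stretches of chromosome where other genes rose too. For each gene the 40 nearest tested genes on its chromosome, ribosomal protein genes left out, were taken as neighbors. All 4 ribosomal protein genes of chromosome 2 (RPS7, RPS27A, RPL31 and RPL37A) were called after short-term knockdown, with a median log2 fold change of 0.49. The other 928 tested genes of chromosome 2 had a median of 0.31 there, and 211 of them were called higher and 14 lower. After long-term knockdown 3 of the 4 were called (RPL37A at 0.28 was not, adjusted p = 0.0693, or 0.00746 with the block), and the other genes of the chromosome had a median of 0.18, with 262 called higher and 107 lower. In the long-term comparison the neighbor median was 0.62 around RPS27A, 0.61 around RPL38, 0.57 around RPL26L1, 0.46 around RPL22L1, 0.34 around RPL35A and RPS7 and 0.22 around RPL37. RPL26L1 and RPL38 thus moved by about as much as the genes beside them, and RPS7 and RPL35A by more.

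The neighbor median was at or below 0.2 for the remaining 74 genes, which had a median log2 fold change of 0.37. Of these 74 genes 45 were called, beside 13.7% of all genes called higher, whatever their neighbors. RPL10 at 0.64 had neighbors at 0.00, RPL28 at 0.58 at −0.05 and RPS6 at 0.57 at −0.16. In 78 of 81 genes the ribosomal protein gene was above its neighbor median long-term, and in 74 of 81 short-term. After short-term knockdown 6 genes had a neighbor median above 0.2, of which 5 were called. Of the other 75 genes 2 were called, beside 5.62% of all genes called higher. That background includes genes in stretches that rose, so the shares are not compared. The part of chromosomal position in the values of single genes was not tested.

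Replicates within a group differed in a way that followed base composition. The coding sequences of the 81 genes had 40.4% to 63.0% GC. In long-term knockdown replicate 3, the 20 genes of lowest GC lay a median of 0.22 below their group mean on the log2 scale (−0.22) and the 20 of highest GC 0.19 above it. The same direction was seen in replicate 3 of long-term nontarget (−0.17 and 0.08) and of short-term knockdown (−0.26 and 0.07), and the opposite one in replicate 1 of the long-term groups (0.13 and −0.10 in nontarget, 0.20 and −0.03 in knockdown). Short-term nontarget replicates stayed within −0.07 and 0.06. As a description across the 81 genes, which share libraries and are not independent, Spearman's rho of the deviation with GC was 0.87 in long-term knockdown replicate 3 and 0.76 in long-term nontarget replicate 3. Over all genes rho was 0.82 and 0.77 in these libraries, so the pattern was not particular to ribosomal protein genes. In short-term nontarget replicate 3 it had the opposite sign (−0.55, and −0.31 over all genes). Across genes, rho of the log2 fold change itself with GC was −0.14 long-term and 0.28 short-term. Without replicate 3 of every group the numbers called were 62 long-term and 20 short-term, beside 33.8% and 14.2% of all genes called in either direction (29.5% and 10.3% with all libraries), and 46 of the 51 long-term calls were among them.

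**Figure D3:**
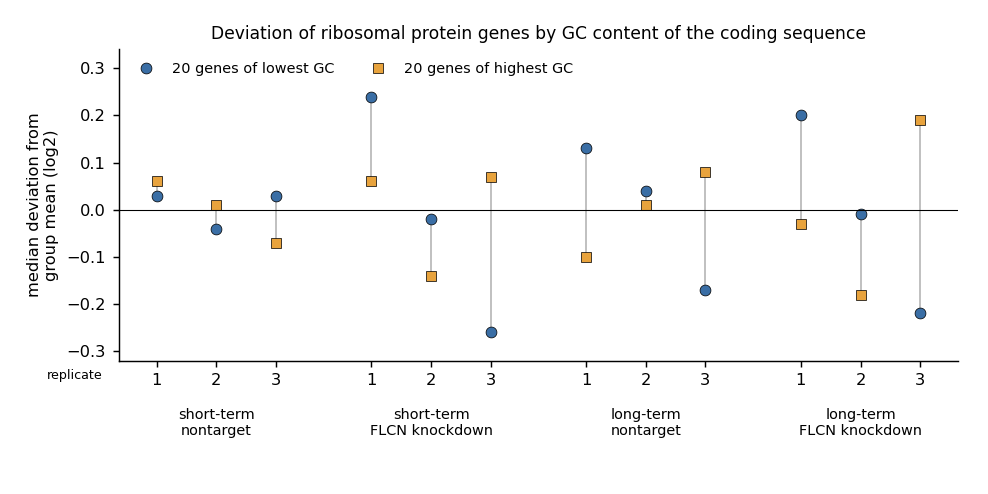
Median deviation from the group mean (vertical axis, log2) of the 20 ribosomal protein genes of lowest GC (circles) and of highest GC (squares) in each library. Circles and squares change places between replicate 1 and replicate 3 in both long-term groups.

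Genes with and without the pyrimidine run were then counted apart, beside the long-term background of 13.7% called higher. Of the 46 core genes with a pyrimidine run at an annotated start, 29 were called long-term with a median log2 fold change of 0.42. Of the 16 core genes with an annotated start but no such run, 11 were called with a median of 0.37, and RPS7 is one of them. Of the 15 core genes with no start in the table, 9 were called with a median of 0.36. A missing run says only that these letters are not at the annotated position, since starts a few bases away were not searched. The 28 genes that host small nucleolar RNAs in their introns had 21 calls and a median of 0.37, against 30 of 53 and 0.38 for the others. 

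Of 5 genes of cytosolic ribosomal proteins or relatives that the symbol rule leaves out, RACK1, a scaffold on the small subunit, rose the most. RACK1 had 1186, 1122 and 1038 CPM in short-term nontarget and 2004, 1942 and 2019 CPM in short-term knockdown cells (log2 fold change 0.83 with an SE of 0.0937, edgeR adjusted p = 1.88e-05), and 1039, 1112 and 1086 CPM against 2469, 2327 and 2782 CPM long-term (1.23, SE 0.0944, adjusted p = 4.19e-08). This was above every gene inside the rule in the long-term comparison, and its neighbors had medians of 0.48 and 0.52. RPS27L, a p53-induced relative of RPS27, rose by 0.90 long-term (adjusted p = 0.000287) and gave −0.15 short-term (adjusted p = 0.646), a difference of 1.04 (interaction adjusted p = 0.00353). FAU, which encodes a ribosomal protein fused to a ubiquitin-like protein, gave 0.21 (adjusted p = 0.18) long-term. RPL36AL gave 0.05 (adjusted p = 0.814).

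Other mRNAs of the TOP class were counted next, beside backgrounds called higher of 13.7% long-term and 5.62% short-term. Of 14 tested, 7 rose and none fell long-term (median 0.26), led by NPM1, a nucleolar chaperone, at 0.72 (edgeR adjusted p = 0.000869), and 3 rose short-term (median 0.15). Of 4 elongation factor genes tested, EEF1B2 at 0.38 (adjusted p = 0.0325) and EEF1D at 0.32 (adjusted p = 0.0211) rose long-term, and none was called short-term. Of 12 noncoding host genes of small nucleolar RNAs, 8 rose long-term (median 0.41), among them GAS5 at 0.81 (adjusted p = 0.000272), and 3 rose short-term (median 0.31). With the replicate number as a block, 8 of the 14 TOP genes, 3 of the 4 elongation factor genes and 9 of the 12 host genes rose long-term. The machinery that makes and assembles ribosomal RNA had calls in both directions, beside a long-term background of 29.5% called in either direction. Of 14 genes of RNA polymerase I and its factors, 3 rose and 2 fell long-term (median 0.02), with POLR1A, the largest subunit, at 0.62 (adjusted p = 0.000434) and RRN3, an initiation factor, at −0.60 (adjusted p = 0.000806). Of 38 assembly factors, 6 rose and 1 fell (median 0.04), with NHP2 at 0.97 (adjusted p = 3.16e-07) and BYSL at −0.81 (adjusted p = 3.83e-05). With the block 9 assembly factors rose and 4 fell, where 17.4% of all genes were called higher. Beside backgrounds of 13.7% called higher and 15.8% called lower without the block, nothing is read from these counts about the machinery. Medians of neighboring genes are not given for the genes named in this paragraph, and the part of chromosomal position in their values was not tested.

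Ribosomal proteins of the mitochondria, which form a separate ribosome, were counted in the same way. Of 77 tested, 23 rose and none fell long-term, led by MRPL22 at 1.17, with a median of 0.23 and 65 above 0, and 5 rose short-term with a median of 0.07. The median of the cytosolic genes was 0.38 and 0.16 in the same comparisons. Shares called were 51 of 81 and 23 of 77 long-term, beside the background of 13.7% called higher. With the block 31 mitochondrial genes rose and 1 fell, against 73 cytosolic genes that rose and 17.4% of all genes called higher. The difference between the cytosolic and the mitochondrial group was not tested.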

How the data were processed

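Polyadenylated RNA from 12 HK2 libraries (4 groups of 3) was prepared with an unstranded kit (TruSeq RNA v2) and sequenced on a MiSeq. Per the study's methods the authors trimmed reads with fastp, mapped them with STAR and counted reads per gene with featureCounts, and per the labels the build was GRCh38. Versions, annotation release and the handling of multiply mapped reads were not given in the sources used here. The deposited values used are raw counts per gene. The authors' normalized columns, counts divided by DESeq2 size factors and rounded (unit score here), and their per-library files, equal to the raw counts of the table, were not used.

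Symbols, lengths and positions were taken from GENCODE v29 (GRCh38) by gene ID, and coordinates are printed only where the ID version was the same (64 of 83 genes). Genes were kept by filterByExpr, which left 13959 genes and 99.8% of counts. edgeR 4.0.16 (R 4.3.3) fitted 1 quasi-likelihood model of all 12 libraries with a term per group, TMM factors and a prior count of 0.125. The biological coefficient of variation was 12.0%, with 8 residual degrees of freedom. P-values are two-sided, adjusted by Benjamini-Hochberg over all genes tested, and measure the spread between 3 biological replicates per group. The SE is the log2 fold change divided by the square root of F. CPM are on TMM-scaled library sizes, and levels of single markers (apart from CDH6, COL1A1 and LUM) and shares on total counts. Length and GC are those of 1 coding sequence per gene. DESeq2 1.42.0 was an alternative. On simulated counts for 13959 genes, with 100 genes changed by each fold, the long-term comparison recovered 90% of 2-fold and 11% of 1.3-fold changes.

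Same-numbered libraries deviated together between long-term knockdown and long-term nontarget (r = 0.68, 0.31 and 0.79 over 5761 genes of mean log2 CPM above 5) and between long-term and short-term knockdown (0.62, 0.65 and 0.76), which pairs them by the data; in the other comparisons r was −0.16 to 0.31. The genes and lists, and the tests, were chosen with earlier results of these data known. Genes named with full values are, per comparison, the 6 largest called rises and falls with a mean of at least 50 counts, the paralogs, RPL5, RPL11, the stalk proteins and the 5 highest and lowest per kilobase; RPL28, RPS6, RPS19, RPS26 and, long-term, RPL10 and RPS3A were added after their values were seen. Alternatives were RLE factors, TMM factors without the ribosomal protein genes, DESeq2, all genes with a count, only genes averaging 10 CPM or more, the replicate block, only the 2 groups compared, each library left out and, chosen after seeing the data, replicate 3 of every group left out and the block within 2 groups. Some genes are not reported here by name.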

Additional observations from a re-analysis of the deposited data

Results flagged for a closer look

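Of the 81 ribosomal protein genes tested, 2 had a knockdown effect that changed with culture time by the interaction test, against 4.98% of all genes called in the same direction and 13.4% in either. With the replicate block 18 of 81 were called, all in that direction, against 8.58% of all genes called in it, so on which side of the background the count lies depends on the fit. RPL38 had an effect 0.74 larger on the log2 scale in the long-term cells (edgeR adjusted p = 0.000716), and RPL35A one 0.70 larger (adjusted p = 0.00472). In both genes the 3 long-term knockdown libraries lay above the other 9. The medians of their 40 nearest genes for the same difference were 0.54 for RPL38 and 0.34 for RPL35A, and their part in the result was not tested.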

How the results depend on the processing

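The median log2 fold change of the ribosomal protein genes moved by less than the replicate spread under every alternative in all 5 comparisons. The numbers called moved more. With the replicate block they were 16 (short-term knockdown, 7 without it), 73 (long-term knockdown, 51), 5 (nontarget over time, 1 higher and 4 lower, against 1), 39 (knockdown over time, 19) and 18 (interaction, 2), and in the short-term and nontarget comparisons the libraries share only a number. The share of all genes called moved as well, from 10.3%, 29.5%, 7.55%, 26.6% and 13.4% to 16.9%, 36.8%, 12.8%, 34.4% and 20.6% with the block. Without replicate 3 of every group they were 20, 62, 2, 23 and 8, in the same order, beside 14.2%, 33.8%, 11.3%, 31.4% and 16.6% of all genes, with 1 of the 2 and 1 of the 23 lower. Within only the 2 groups compared, 3 were called between the nontarget groups (1 higher, 2 lower; 9.57% of all genes) and 10 between the knockdown groups (21.3%), or 58 with the block as well (56 higher, 2 lower; 43.5%), and 74 for long-term knockdown (44.5%). Without a filter the numbers were 63 (long-term knockdown), 2 (nontarget over time, 1 higher and 1 lower) and 6 (interaction), beside 16.3%, 4.81% and 8.13% of all genes, and DESeq2 gave 5 for the interaction (11.7%). Leaving out 1 library gave 2 to 9 (short-term), 33 to 55 (long-term), 0 to 1 (nontarget over time), 6 to 29 (knockdown over time) and 2 to 10 (interaction), beside 6.17% to 8.84%, 23.2% to 29.5%, 4.1% to 6.39%, 19.9% to 27.2% and 10.3% to 16.1% of all genes. The cause of these moves was not tested. With nuclear protein-coding counts as the denominator the share was 5.70% (short-term nontarget), 5.61% (long-term nontarget) and 7.32% (long-term knockdown), and without 1 library each the group means spanned 5.29% to 5.40%, 5.61% to 6.10% (short-term knockdown), 5.29% to 5.44% and 6.70% to 6.95%. Of the calls of single genes, 166 were lost and 1034 kept over all alternatives, and none changed direction. At 3 libraries a group, a gene not called here may still differ. Changes of 1.3-fold were mostly missed on simulated counts, where 100 genes of mixed count levels changed by each fold and the rest did not. That rate does not carry over to the ribosomal protein genes, of which 51 of 81 were called long-term at a median of 1.3-fold.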
